A study of Mus musculus with 12 samples.

Results

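Endothelial cells line blood vessels and carry a set of surface receptors, junction proteins and secreted proteins by which they are recognised in a tissue sample. The 10 genes described here are Kdr, Flt1, Pecam1, Cdh5, Tek, Tie1, Emcn, Eng, Plvap and Egfl7. They were taken by name from a count table of 46095 genes, and all 10 were among the 13743 genes with enough counts to be tested. RNA had been sequenced in 6 pancreas libraries of Axl-/-Mertk-/- mice (labelled AMKO) and 6 of C57BL/6J wild type mice (WT), all at postnatal day 56. Acute pancreatitis had been induced in both genotypes with caerulein, a peptide that acts on the cholecystokinin receptor of acinar cells, given intraperitoneally 10 times, 1 h apart, at 100 µg/kg, and tissue was taken 12 h after the first dose. Axl and Mertk encode TAM receptors, through which macrophages and other cells take up dying cells. The comparison gives the state of the vessels' genes in inflamed pancreas without these receptors, and no uninjured pancreas was analysed here. The sources used here give no strain background for AMKO, so a difference of background and the loss of the receptors cannot be told apart.

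The VEGF receptors KDR (VEGFR2) and FLT1 (VEGFR1) are receptor tyrosine kinases of vessel growth and permeability. KDR carries most of the VEGF-A signal, and FLT1 binds VEGF-A tightly with weak signalling and so limits how much reaches KDR. TEK (TIE2) and its partner TIE1 form the angiopoietin receptor system that keeps vessels stable. Endoglin, the product of Eng, is a co-receptor for BMP and TGF-beta ligands on endothelium. VE-cadherin (Cdh5) and PECAM-1 hold endothelial cells together at their junctions, endomucin (Emcn) is a surface sialomucin of capillaries and veins, PLVAP forms the diaphragms of fenestrated capillaries such as those of the pancreas, and EGFL7 is a secreted protein of the vessel wall.

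Total counts per library ran from 10764037 to 13862613 in AMKO and from 10668637 to 15184371 in WT. Axl stood at 5.60 to 11.5 CPM (counts scaled to TMM-adjusted library size) in AMKO libraries and 44.4 to 77.1 CPM in WT libraries, without overlap. Mertk stood at 4.37 to 10.5 CPM in AMKO and 2.69 to 10.5 CPM in WT, and counts over the whole gene do not show whether its disruption was present. The libraries WT 1, WT 2 and WT 3 held 2 to 7 counts of albumin, a liver transcript, against 141 to 309 in AMKO libraries and 192 to 222 in WT 4 to 6. The libraries WT 3, WT 6, AMKO 3 and AMKO 6 held the fewest leukocyte transcripts, with pan-leukocyte genes summing to 141 to 204 CPM, against 283 to 652 CPM in the other 8 libraries. Both splits stand beside the results they touch.

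Kdr and Flt1 fell in AMKO pancreas, and no other gene of the 10 passed the test. Kdr had 0.561 times its WT level in AMKO and Flt1 had 0.684 times its WT level. Pecam1 and Plvap, with the highest CPM of the 10, had log2 fold changes of -0.024 and -0.0047. The test was edgeR's quasi-likelihood F test over all 13743 genes with Benjamini-Hochberg adjustment, and a gene was called at an adjusted p under 0.05. By this rule 2 of 10 members were called lower, against 3.37% of all genes tested, and 0 of 10 were called higher, against 2.41%, or 5.78% of all genes in either direction. The members were listed with earlier results of these data known, so these shares are a description and carry no test. No member was higher at an unadjusted p under 0.05 either (0 of 10), nor by DESeq2 (0 of 10), which called 625 of 14479 genes higher. No share of all genes is given here at an unadjusted p. In bulk tissue, fewer endothelial cells and less RNA per endothelial cell cannot be told apart.

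**Figure D1:**
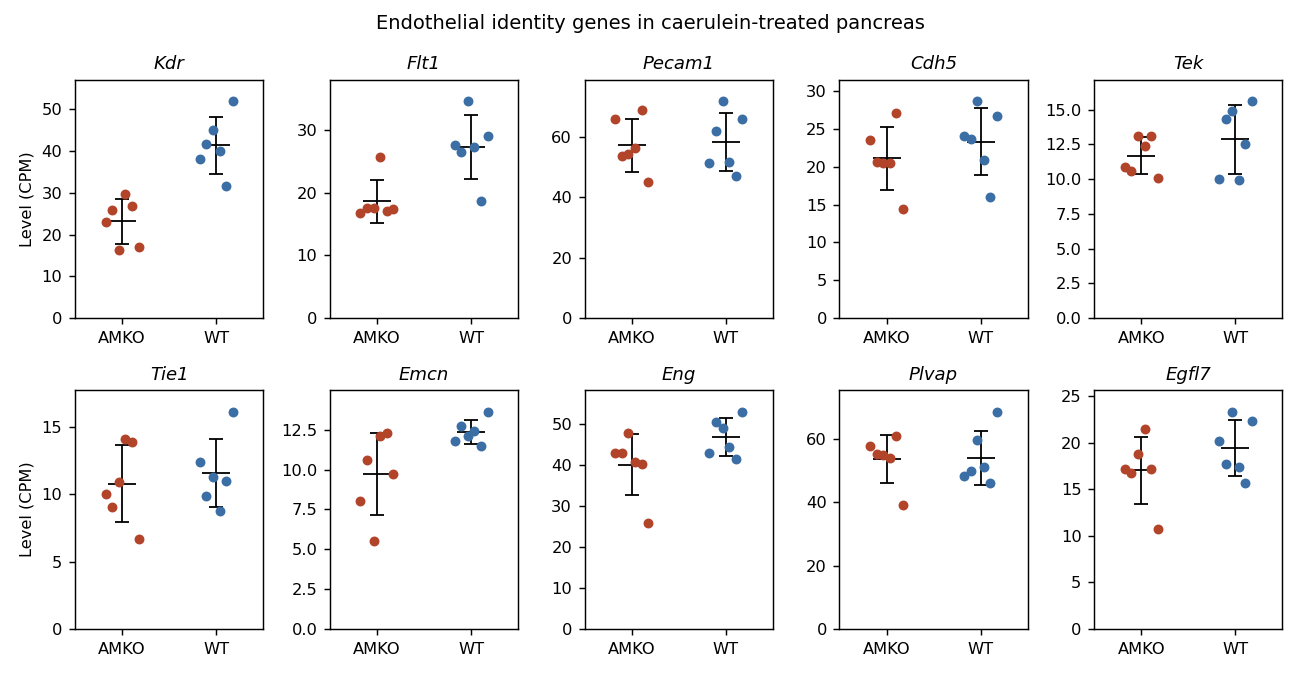
Level of each member in CPM (y axis, from 0) for the 6 AMKO and 6 WT libraries; each point is 1 library, and the bar and whiskers are the mean and SD. Kdr is the only panel in which the genotypes do not overlap (16.4 to 29.7 CPM in AMKO, 31.6 to 51.8 CPM in WT).

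Both VEGF receptor genes lie on chromosome 5, and the DNA before their RefSeq starts is shown since both genes were called, with that of Tek, a receptor kinase gene of the same cells that was not called. Kdr spans positions 75932827 to 75978458 on the minus strand and Flt1 147561604 to 147726011 on the minus strand (GRCm38, the assembly that mm10 names, GENCODE M21). Tek spans 94739289 to 94874976 on the plus strand and Tie1 118471191 to 118490061 on the minus strand of chromosome 4. The windows are the 250 bases before a RefSeq start on GRCm38.p6, written 5′ to 3′ on the gene's strand: chr5:75978456-75978705 for Kdr, chr5:147726012-147726261 for Flt1 and chr4:94739039-94739288 for Tek. Capitals mark matches on either strand to 5 short motifs, which do not overlap each other in these windows. The ETS motif was searched only in the form CCGGAA, which many family members bind, and in the related form CAGGAA. Sites with GGAA, the letters that end both forms, after other letters were not marked. The Flt1 window holds such sites. The GATA motif was searched as AGATAA, the GC box bound by SP factors as GGGCGG, and the TATA box of core promoters as TATAAA.
Kdr: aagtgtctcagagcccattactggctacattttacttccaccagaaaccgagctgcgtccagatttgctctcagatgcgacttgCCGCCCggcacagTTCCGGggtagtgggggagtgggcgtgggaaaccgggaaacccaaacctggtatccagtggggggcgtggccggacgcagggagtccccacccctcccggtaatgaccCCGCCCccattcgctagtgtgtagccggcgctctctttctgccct
Flt1: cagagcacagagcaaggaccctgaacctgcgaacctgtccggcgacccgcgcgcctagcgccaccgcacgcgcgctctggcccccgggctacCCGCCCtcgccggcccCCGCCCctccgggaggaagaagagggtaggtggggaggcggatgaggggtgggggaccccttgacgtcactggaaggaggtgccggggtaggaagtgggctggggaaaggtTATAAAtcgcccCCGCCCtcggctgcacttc
Tek: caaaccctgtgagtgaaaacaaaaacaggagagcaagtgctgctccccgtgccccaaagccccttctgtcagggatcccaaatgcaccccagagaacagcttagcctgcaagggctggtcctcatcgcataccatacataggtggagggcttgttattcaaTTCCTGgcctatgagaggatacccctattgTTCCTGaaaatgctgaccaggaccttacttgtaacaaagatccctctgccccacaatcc

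The Kdr window held 2 GC boxes and 1 match to the ETS forms searched, and the Flt1 window 3 GC boxes and 1 TATA box. The Tek window held 2 matches to the ETS forms searched and no GC box. Of the 32851 windows of the same length in the RefSeq table, 32.7% held a GC box, 12.0% held CCGGAA, 25.7% held CAGGAA and 12.4% held TATAAA. Of the 10 members, 7 had a window in the table. Besides Kdr and Flt1, 1 of the 3 Egfl7 windows held GC boxes (4 of them, some overlapping), and the windows of Emcn and Eng held none. The matches describe the letters only.

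Kdr stood at a lowest, median and highest level of 16.4, 24.4 and 29.7 CPM in AMKO libraries, from 157 to 374 counts, and 31.6, 40.7 and 51.8 CPM in WT libraries, from 338 to 779 counts. Every AMKO library was below every WT library. Among all genes tested, 2.30% separated in this way with AMKO below and 1.24% with AMKO above. The means were 23.1 ± 5.43 CPM in AMKO and 41.3 ± 6.79 CPM in WT (SD, n = 6 each), a log2 fold change of -0.83 (SE 0.15, 95% interval -1.16 to -0.50, edgeR adjusted p = 0.00752). AMKO 3 (16.4 CPM) and AMKO 6 (17.0 CPM) were the lowest of all libraries, and WT 6 (51.8 CPM) and WT 3 (44.9 CPM) the highest. These are the same 4 libraries that held the fewest leukocyte transcripts. Without them Kdr averaged 26.4 ± 2.74 CPM in AMKO and 37.8 ± 4.38 CPM in WT (SD, n = 4 each). The log2 fold change was then -0.52 (SE 0.12, edgeR adjusted p = 0.0752), not past the threshold, in a fit with fewer libraries.

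The sex of the mice, read from the counts of Xist and Ddx3y, bears on that comparison. Each genotype had 3 male and 3 female libraries, but the 4 left out were female in AMKO and male in WT, which left 3 male and 1 female AMKO libraries against 1 male and 3 female WT libraries. Among males Kdr stood at 25.8, 26.8 and 29.7 CPM in AMKO and 38.0, 44.9 and 51.8 CPM in WT. Among females it stood at 16.4, 17.0 and 23.1 CPM in AMKO and 31.6, 39.9 and 41.6 CPM in WT. Separation within each sex follows from the separation over all 12 libraries and is not a further check. With sex as a second term over all 12 libraries the log2 fold change of Kdr was -0.85 (SE 0.12, edgeR adjusted p = 0.0017). With sex as a term in the 8 libraries, a fit added after the data were seen, it was -0.59 (SE 0.14, adjusted p = 0.152), and 27 of all genes were called.

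Flt1 stood at a lowest, median and highest level of 16.7, 17.4 and 25.6 CPM in AMKO libraries, and 18.7, 27.4 and 34.5 CPM in WT libraries. Apart from AMKO 4 (25.6 CPM), the AMKO libraries lay close together, between 16.7 and 17.6 CPM, below every WT library. AMKO 4 lay inside the WT range. The means were 18.6 ± 3.44 CPM in AMKO and 27.2 ± 5.09 CPM in WT (SD, n = 6 each), a log2 fold change of -0.55 (SE 0.14, 95% interval -0.85 to -0.24, edgeR adjusted p = 0.0363). The call was near its threshold. Of the 12 fits without 1 library, 10 lost it (all but those without AMKO 4 or WT 5), with adjusted p up to 0.0837 and log2 fold changes of -0.66 to -0.47. Kdr was called in all 12 such fits (adjusted p = 0.00639 to 0.0186).

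The albumin split touched these calls as well. Against WT 4 to 6 alone, which share the liver trace of the AMKO libraries, the fitted log2 difference was -0.82 for Kdr (SE 0.20, adjusted p = 0.0821) and -0.41 for Flt1 (SE 0.18, adjusted p = 0.289). Against WT 1 to 3 alone the values were -0.84 for Kdr (SE 0.18, adjusted p = 0.0463) and -0.66 for Flt1 (SE 0.15, adjusted p = 0.0618). The size for Kdr was therefore alike against either set of WT libraries, with fewer libraries in each fit. Whether the liver trace has a part in the values was not tested.

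The angiopoietin receptors did not pass the test. Tek stood at 10.1, 11.7 and 13.1 CPM in AMKO libraries (lowest, median and highest) and 9.95, 13.4 and 15.6 CPM in WT libraries. The genotypes overlapped, and the log2 fold change was -0.14 (SE 0.13, 95% interval -0.42 to 0.15, edgeR adjusted p = 0.587). Tie1 stood at 6.71, 10.4 and 14.1 CPM in AMKO and 8.76, 11.2 and 16.1 CPM in WT, with a log2 fold change of -0.10 (SE 0.19, 95% interval -0.50 to 0.29, adjusted p = 0.787). The lower bounds of both intervals are smaller in size than the fitted value for Kdr.

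Eng, the BMP co-receptor gene (chromosome 2, 32646595 to 32682669, plus strand), stood at 26.0, 41.9 and 47.9 CPM in AMKO libraries and 41.6, 46.8 and 53.0 CPM in WT libraries. AMKO 6 alone was far below the rest of its group, whose next value was 40.4 CPM. The log2 fold change was -0.22 (SE 0.12, 95% interval -0.48 to 0.035, edgeR adjusted p = 0.30). Eng shares 61 exonic bases with Fpgs on the other strand, which is uncertain where strand was not used in counting. Egfl7 shares exonic bases with Gm20532 and Mir126a on its own strand and with Agpat2 and Mir126b on the other, so its count is uncertain with or without strand. Egfl7 (chromosome 2, 26580014 to 26593120, plus strand) had 17.0 ± 3.55 CPM in AMKO and 19.4 ± 2.99 CPM in WT (SD, n = 6 each; log2 fold change -0.19, SE 0.15, adjusted p = 0.49).

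Among the junction and fenestral proteins, Pecam1 and Plvap had the fitted values nearest to 0 of the 10 members. Pecam1 lies on chromosome 11 (106654217 to 106750628, minus strand), Cdh5 on chromosome 8 (104101625 to 104144511, plus strand) and Plvap on chromosome 8 (71497765 to 71511752, minus strand). Pecam1 stood at 44.9, 55.1 and 68.6 CPM in AMKO libraries and 47.1, 56.7 and 71.6 CPM in WT libraries (log2 fold change -0.024, SE 0.12, 95% interval -0.28 to 0.24, edgeR adjusted p = 0.931). PECAM-1 is also carried by platelets and leukocytes. Cdh5, whose product is restricted more tightly to endothelium, stood at 14.4, 20.6 and 27.1 CPM in AMKO and 16, 23.8 and 28.6 CPM in WT (log2 fold change -0.14, SE 0.15, 95% interval -0.47 to 0.19, adjusted p = 0.639). Plvap stood at 39.0, 55.1 and 60.9 CPM in AMKO and 45.9, 50.5 and 68.4 CPM in WT (log2 fold change -0.0047, SE 0.12, 95% interval -0.25 to 0.24, adjusted p = 0.988). All 3 pairs of ranges overlapped widely. Changes of the size fitted for Kdr lie outside the 3 intervals.

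Emcn, the gene of the capillary and venous sialomucin (chromosome 3, 137341067 to 137432185, plus strand), lay between these and the VEGF receptors. It stood at 5.53, 10.2 and 12.3 CPM in AMKO libraries and 11.5, 12.2 and 13.6 CPM in WT libraries. The WT libraries lay within a narrow band, 4 of the AMKO libraries were below it, and AMKO 4 and AMKO 5 reached it. The log2 fold change of -0.35 did not pass (SE 0.16, 95% interval -0.70 to 0.0035, edgeR adjusted p = 0.233).

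**Figure D2:**
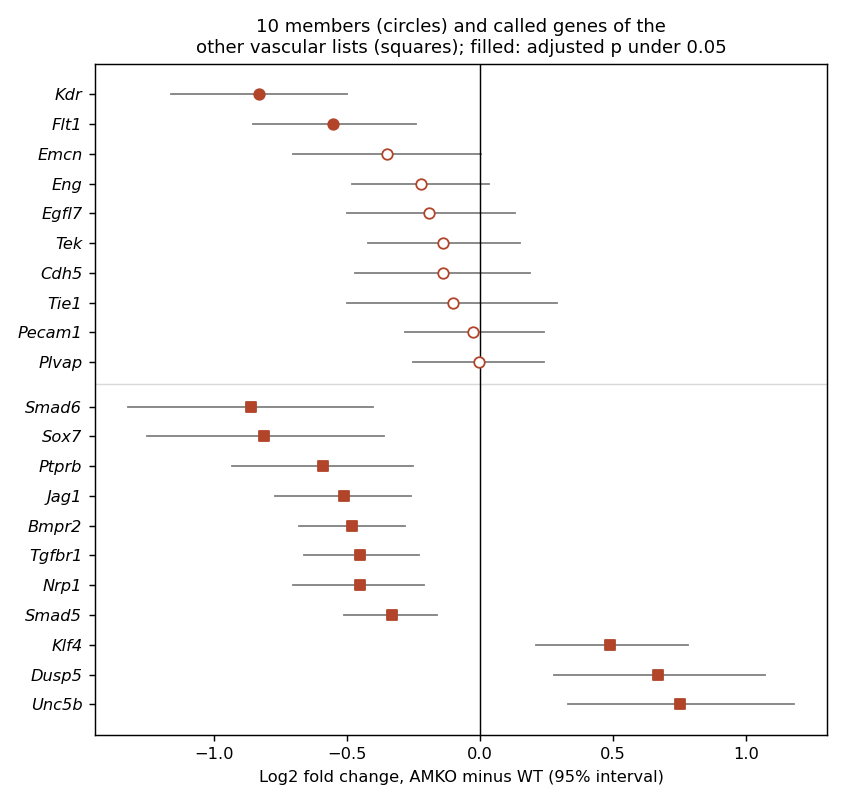
Log2 fold change, AMKO minus WT (x axis), with 95% interval for the 10 members (circles) and the called genes of the other vascular lists (squares); filled symbols have an adjusted p under 0.05. Kdr (-0.83) and Flt1 (-0.55) are the only filled circles, and the intervals of the other 8 members reach 0.

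All 10 fitted values were below 0, with a median of -0.16. Over all genes tested 50.3% were below 0, with a median of -0.002. The members are transcripts of the same cells and are not independent of each other. The summed level of the 10 was 263 ± 35.8 CPM in AMKO and 307 ± 42.4 CPM in WT (SD, n = 6 each), or 0.0168% to 0.0323% of counts in AMKO libraries and 0.0252% to 0.0376% in WT libraries. AMKO 6 had the lowest value of all 12 libraries for 6 of the 10 members, and WT 6 had the highest for 6 of the 10 and WT 3 for the other 4. Without AMKO 6 the median of the members was -0.09 with 7 of 10 below 0, and without WT 6 it was -0.12 with 7 of 10 below 0. Without the 4 libraries poor in leukocytes, which leaves the sexes unequal between the genotypes, it was 0.02 with 4 of 10 below 0, and with sex as a term in the same 8 libraries it was -0.03 with 5 of 10 below 0. With sex as a term over all 12 libraries it was -0.16 with 10 of 10 below 0. Kdr, Flt1, Emcn and Eng had fitted values below 0 in all 27 alternatives run, and each of the other 6 members changed sign in at least 1 of them.

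To set the VEGF receptors beside the amount of endothelial RNA in each library, levels were divided by that of Cdh5. The Kdr to Cdh5 ratio was 0.982, 1.25, 0.801, 1.45, 0.989 and 1.18 in AMKO 1 to 6, and 1.58, 1.77, 1.57, 1.91, 1.98 and 1.94 in WT 1 to 6. The genotypes did not overlap, with means of 1.11 ± 0.231 in AMKO and 1.79 ± 0.18 in WT (SD, n = 6 each). Of the other tested genes set over Cdh5 in the same way, 0.480% had every AMKO library below every WT library. For CPM without the division this share was 2.30%. Kdr and Cdh5 varied together within genotype (Pearson correlation 0.69 over 12 libraries), so the division need not act on Kdr as on other genes. The 0.480% is therefore not a like background for Kdr. The Flt1 to Cdh5 ratio was 0.709, 0.849, 0.859, 1.25, 0.63 and 1.21 in AMKO 1 to 6 and 1.15, 1.12, 1.21, 1.30, 1.17 and 1.09 in WT 1 to 6. AMKO 4 and AMKO 6 lay within the WT range, so this ratio overlapped. The ratios for Pecam1 (2.74 ± 0.212 in AMKO and 2.52 ± 0.263 in WT) and Plvap (2.57 ± 0.184 in AMKO and 2.35 ± 0.338 in WT) had slightly higher means in AMKO and overlapped. Cdh5 was chosen as the divisor with these values known, so the ratios are a description and carry no test.

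**Figure D3:**
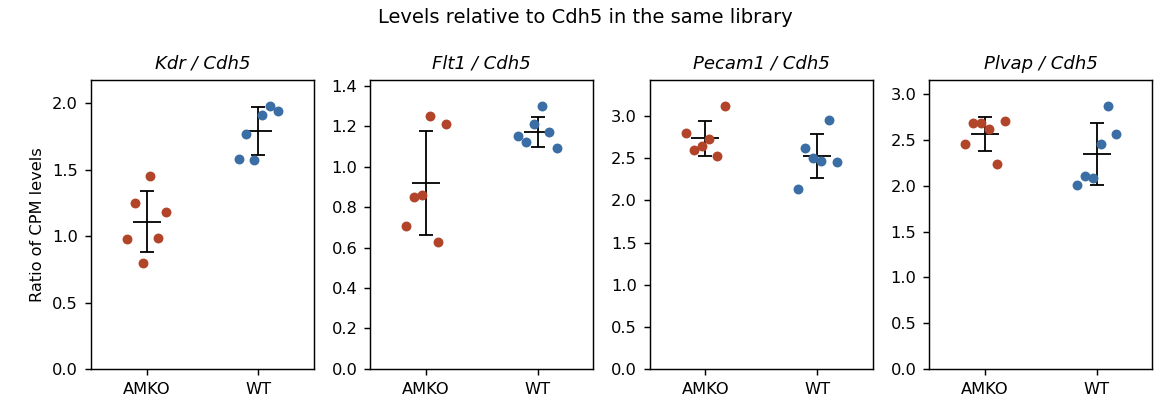
Level of Kdr, Flt1, Pecam1 and Plvap divided by that of Cdh5 in the same library (y axis, from 0), for AMKO and WT; points are libraries, and the bar and whiskers are the mean and SD. The Kdr ratio is 0.801 to 1.45 in AMKO and 1.57 to 1.98 in WT, while the other 3 ratios overlap.

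Per kilobase of longest annotated transcript, the order of levels in WT was Plvap (27.1 ± 4.29 CPM per kb), Pecam1 (16.9 ± 2.81), Eng (13.7 ± 1.33), Egfl7 (10.4 ± 1.60), Kdr (6.97 ± 1.15), Cdh5 (5.83 ± 1.12), Flt1 (3.95 ± 0.739), Emcn (3.51 ± 0.206), Tek (2.76 ± 0.529) and Tie1 (2.74 ± 0.605; SD, n = 6). Plvap stood above Pecam1 without overlap, and each later neighbour overlapped the one before it over libraries. Kdr had 3.91 ± 0.916 CPM per kb in AMKO (SD, n = 6), below the 5.28 ± 1.05 of Cdh5 in AMKO, an order opposite to that in WT. Within genotype, members varied together across libraries. After subtraction of each genotype's mean log2 CPM, Pearson correlations over the 12 libraries had a median of 0.60 across the 45 pairs of members, from -0.22 for Emcn and Eng to 0.91 for Pecam1 and Cdh5. The points share their libraries and scaling, so these values are a description. No such median was computed for pairs of other genes, so the values do not show a trait particular to the members.

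Kdr and Flt1 are long transcripts, and transcript length moved with genotype across the whole table. The longest annotated transcript has 5924 bases for Kdr and 6895 for Flt1, which puts both in the longest of 5 equal classes of tested genes. In that class the median log2 fold change was -0.10 and 6.66% of genes were called lower, against 0.07 and 1.34% in the shortest class. The other members lay in the shortest to the second longest class. By GC content, median log2 fold changes ran from -0.09 in the lowest class to 0.11 in the highest, and Kdr and Flt1 were in the middle class (median -0.01). With each library corrected for length and GC content, an alternative added after the data were seen, Kdr had a log2 fold change of -0.76 (SE 0.15, edgeR adjusted p = 0.0106) and Flt1 of -0.45 (SE 0.14, adjusted p = 0.10), so the Flt1 call was lost.

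**Figure D4:**
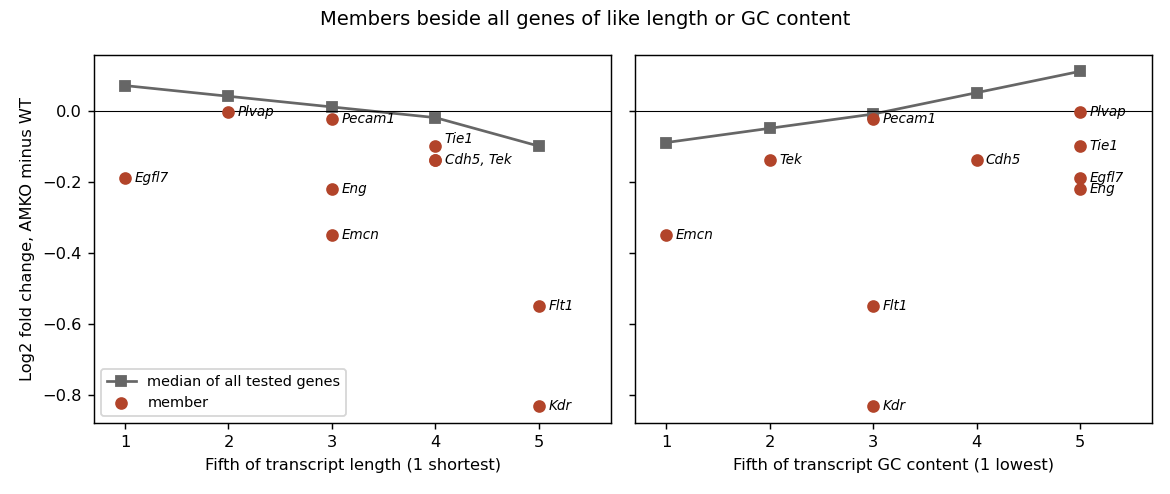
Log2 fold change, AMKO minus WT (y axis), of the 10 members (red points) by class of transcript length (left) and of GC content (right), with the median of all tested genes of each class (grey squares). Kdr and Flt1 lie in the longest class, where the median of all genes is -0.10, and lie well below it.

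Genes that act with these receptors were read from lists of textbook genes, chosen with earlier results of these data known, so their counts are a description. Over 9 such lists with 104 tested genes, counting each gene once, 8 were called lower in AMKO (7.69%, against 3.37% of all genes) and 3 higher (2.88%, against 2.41%). The median log2 fold change was -0.10, and 61.5% of the fitted values were below 0. The edgeR shares of all genes are the background for each list below. DESeq2 called 4.43% of its 14479 genes lower (642 genes) and 625 genes higher. No share of all genes is given here at an unadjusted p under 0.05, so the list counts at that threshold have no background beside them. Of the 8 genes that fell, 5 lay in the longest class of transcripts, as did 24 of the 104 tested. None of the 11 was called against WT 4 to 6 alone or without the 4 libraries poor in leukocytes, and only Bmpr2 kept its call in all 12 fits without 1 library. Tgfbr1 lost its call in 2 of these, Jag1 in 3, Smad5 in 5, Smad6 and Sox7 in 7, and Klf4, Unc5b and Dusp5 in 9. Some listed genes are not confined to endothelium, and levels in bulk tissue do not show in which cells a change lies. In WT, Rcan1 of the VEGF response list averaged 455 CPM and Nrp1 166 CPM, against 23.3 CPM for Cdh5.

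Among VEGF ligands and other VEGF receptors, 1 of 8 tested genes was called lower and 0 higher by edgeR, against 3.37% and 2.41% of all genes. The median log2 fold change was -0.02. At an unadjusted p under 0.05, 2 were lower and 2 higher, and DESeq2 called 1 lower and 1 higher. Nrp1, which encodes neuropilin-1, the VEGF co-receptor that joins KDR, had 121 ± 16.8 CPM in AMKO and 166 ± 24.8 CPM in WT (SD, n = 6 each; log2 fold change -0.45, SE 0.12, edgeR adjusted p = 0.0335), a call that 8 of the 12 fits without 1 library did not give. With the length and GC correction it was -0.35 and not called (adjusted p = 0.139). The ligand gene Vegfa did not pass, with a fitted value above 0 (76.4 ± 11.2 CPM in AMKO and 61.0 ± 10.6 CPM in WT; 0.32, SE 0.12, adjusted p = 0.12). Vegfb was alike (0.47, SE 0.15, adjusted p = 0.0826). Flt4, the lymphatic VEGF receptor, stood at -0.35 (SE 0.16, adjusted p = 0.213). Of 4 tested angiopoietin ligands and TIE regulators 1 fell, against 3.37% of all genes. This was Ptprb, the endothelial phosphatase VE-PTP that acts on TEK and VE-cadherin, with 24.3 ± 5.44 CPM in AMKO and 36.7 ± 7.13 CPM in WT (-0.59, SE 0.16, adjusted p = 0.0431), a call that 9 of the 12 fits without 1 library did not give. It was not called either with RLE scaling (adjusted p = 0.0501), library totals (0.119), a replicate block (0.067) or the length and GC correction (-0.43, adjusted p = 0.0724), and its longest transcript has 11911 bases. Svep1, the most abundant of the list in CPM, shares exonic bases with Gm26889 on the other strand and did not pass (-0.28, SE 0.15, adjusted p = 0.30).

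Among receptors, SMADs and targets of the endoglin pathway, 4 of 14 tested genes were called lower and 0 higher by edgeR. Of all genes, 3.37% were called lower and 2.41% higher. The median log2 fold change of the list was -0.11. At an unadjusted p under 0.05, 6 of the list were lower and 0 higher, as by DESeq2, which called 4.43% of all its genes lower. Bmpr2, the type II BMP receptor, had 62.1 ± 8.49 CPM in AMKO and 86.6 ± 8.04 CPM in WT (SD, n = 6 each; log2 fold change -0.48, SE 0.09, edgeR adjusted p = 0.00932). With the length and GC correction it was -0.26 and still called (adjusted p = 0.0466). Tgfbr1, the type I TGF-beta receptor, averaged 48.9 ± 5.51 CPM in AMKO and 66.8 ± 9.65 CPM in WT (-0.45, SE 0.10, adjusted p = 0.0201), and Smad5, a BMP signal transducer, 37.8 ± 3.71 CPM in AMKO and 47.6 ± 4.30 CPM in WT (-0.33, SE 0.08, adjusted p = 0.0303). The inhibitory Smad6 had 1.65 ± 0.496 CPM in AMKO and 3.01 ± 0.359 CPM in WT (-0.86, SE 0.22, adjusted p = 0.0318). Smad5 and Smad6 did not overlap between the genotypes, with AMKO below WT, as was so for 2.30% of all genes tested. Smad5 shares 100 exonic bases with Gm27301 on its own strand and is uncertain for that reason. With the length and GC correction Tgfbr1 (-0.29, adjusted p = 0.0634) and Smad5 (-0.19, adjusted p = 0.101) lost their calls. The endoglin partner Acvrl1 (ALK1) did not pass (0.054, SE 0.10, 95% interval -0.16 to 0.27, adjusted p = 0.798), nor did the BMP target genes Id1 (-0.10, adjusted p = 0.782) and Id3 (-0.014, adjusted p = 0.983). Id2 (-0.63, SE 0.18, adjusted p = 0.0602) and Smad7 (-0.60, SE 0.18, adjusted p = 0.0615) had fitted values further below 0 and did not pass either.

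Of 13 tested endothelial transcription factors, 1 was called lower and 1 higher by edgeR, against 3.37% and 2.41% of all genes. The median log2 fold change was 0.17. At an unadjusted p under 0.05, 1 was lower and 2 higher, and DESeq2 called 1 lower and 1 higher. Sox7, an endothelial SOX factor, had 4.50 ± 1.23 CPM in AMKO and 7.88 ± 1.96 CPM in WT (SD, n = 6 each; log2 fold change -0.81, SE 0.21, edgeR adjusted p = 0.0356). Its levels did not overlap between the genotypes, with AMKO below WT, as was so for 2.30% of all genes tested. Klf4, a factor induced by shear stress in endothelium and expressed in epithelium as well, rose (16.7 ± 2.49 CPM in AMKO and 11.9 ± 1.95 CPM in WT; 0.49, SE 0.13, adjusted p = 0.0428). Erg, a defining endothelial factor, had too few counts to be tested. Of 15 tested Notch and tip cell genes, 1 was called lower and 1 higher by edgeR, against the same shares of all genes. The median was -0.25. At an unadjusted p under 0.05, 5 were lower and 1 higher, and DESeq2 called 1 lower and 1 higher. The Notch ligand gene Jag1 had 27.7 ± 4.11 CPM in AMKO and 39.5 ± 6.35 CPM in WT (-0.51, SE 0.12, adjusted p = 0.0232), and it lies 8.28 Mb from Mertk on chromosome 2. Unc5b, a netrin receptor of tip cells, rose (0.75, SE 0.20, adjusted p = 0.0392).

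The remaining vascular lists held few calls. None of 26 other pan-endothelial genes was called by edgeR, with 3 lower and 0 higher at an unadjusted p under 0.05 and 1 lower by DESeq2. Podxl (85.8 ± 11 CPM in AMKO and 91.4 ± 8.09 CPM in WT, SD, n = 6 each) and Cd93 (38.2 ± 14.4 CPM in AMKO and 43.1 ± 5.71 CPM in WT) were the most abundant in CPM. Cldn5, a defining junction gene of endothelium, was listed with 0 counts in every library, while Cdh5 and Pecam1 had counts in all 12. Prss2 of the acinar list also had 0 counts, beside 11629317 counts in total for Ctrb1 of that list. Whether such genes were lost in counting was not tested, so 0 counts do not show that Cldn5 was absent. None of 13 arterial, venous and capillary genes and none of 5 lymphatic genes was called by edgeR, with 3 lower and 0 higher in each list at an unadjusted p under 0.05 and 1 lower in each by DESeq2. Of 7 VEGF response genes, 1 was called higher and 0 lower by edgeR, against 2.41% and 3.37% of all genes. At an unadjusted p under 0.05, 3 were higher and 0 lower, and by DESeq2 2 were higher and 0 lower. The called gene was Dusp5, a MAP kinase phosphatase (13.4 ± 2.22 CPM in AMKO and 8.40 ± 2.35 CPM in WT; log2 fold change 0.67, SE 0.18, edgeR adjusted p = 0.0456), which shares exonic bases with the antisense gene AC137853.2 and is uncertain for that reason.

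Markers of cells that accompany vessels moved in part with the VEGF receptors. Of 11 tested pericyte and smooth muscle genes 2 were called lower by edgeR, against 3.37% of all genes tested. At an unadjusted p under 0.05, 4 were lower and 0 higher, and DESeq2 called 2 lower and 0 higher. Fitted values below 0 numbered 9 of 11. The called genes were Pdgfrb, the PDGF receptor of pericytes (log2 fold change -0.62, SE 0.16, edgeR adjusted p = 0.0330), and Mcam, shared by mural cells and endothelium (-0.47, SE 0.12, adjusted p = 0.0356). Each was called in 4 of the 12 fits without 1 library, and over all 27 alternatives each lost its call in 14. The log2 fold changes then ran from -0.73 to -0.22 for Pdgfrb and from -0.52 to -0.31 for Mcam. Mcam shares 17 exonic bases with Gm10687 on the other strand. The summed level of the list ran from 85.6 to 169 CPM in AMKO libraries and from 125 to 189 CPM in WT libraries. Red cell genes summed to 7.39 to 45.0 CPM in AMKO and 18.1 to 276 CPM in WT, with WT 3 highest, and none of 4 tested passed (4 lower at an unadjusted p under 0.05, 0 by DESeq2). Fibroblast genes summed to 514 to 1080 CPM in AMKO and 658 to 1170 CPM in WT, with 0 of 7 called by edgeR, 4 lower at an unadjusted p under 0.05 and 2 lower by DESeq2. Macrophage genes summed to 223 to 596 CPM in AMKO and 128 to 308 CPM in WT, with 1 of 7 called higher, against 2.41% of all genes tested. This was the mannose receptor gene Mrc1 (0.81, SE 0.18, edgeR adjusted p = 0.0211), which liver and lymphatic endothelium also express. Neutrophil genes summed to 48.2 to 328 CPM in AMKO and 60.7 to 586 CPM in WT. Duct genes summed to 1530 to 2200 CPM in AMKO and 1960 to 2610 CPM in WT, with 2 of 6 called lower, against 3.37% of all genes tested. These were Epcam (-0.50, edgeR adjusted p = 0.00851) and Spp1 (-0.62, adjusted p = 0.0108). Spp1 shares 309 exonic bases with Gm42793 on its own strand and is uncertain for that reason. No leukocyte, neutrophil, acinar, islet, liver, adipocyte or mesothelial gene of the lists was called by edgeR, at an unadjusted p under 0.05 (0 in each list) or by DESeq2 (0 in each list). The part of these cells in the levels of Kdr and Flt1 was not tested.

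Among 8875 other well-counted genes (mean log2 CPM 3 or more), those whose level followed the mean of the 10 members most closely within genotype were not mostly endothelial. By Pearson correlation over the 12 libraries, after subtraction of each genotype's mean, they were Gga2 (0.95), a Golgi clathrin adaptor, Jag1 (0.94), the basement membrane collagen Col4a2 (0.91), Ano8 (0.88), the sugar transporter Slc50a1 (0.87), BC034090 (0.85), the ubiquitin ligase Trim11 (0.84) and Hnrnpul1 (0.84). Of these, Jag1 (above) and BC034090 (33.1 CPM in AMKO and 97.1 CPM in WT, log2 fold change -1.55, SE 0.21, edgeR adjusted p = 0.00108) differed between the genotypes, and the other 6 did not pass (adjusted p = 0.119 to 0.944).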

How the data were processed

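RNA of 6 AMKO and 6 WT pancreas libraries was analysed. The submitters' processing notes name HISAT2 2.0.4 and the mm10 build. The sources used here do not name the read counter, its annotation, its strand setting or its handling of multiply aligned reads. Deposited were unnormalised counts of reads for each gene, in 12 columns matched to samples by title. Of the 46095 genes, 19888 had 0 counts in every library.

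AMKO was compared with WT by edgeR 4.0.16's quasi-likelihood F test (R 4.3.3). TMM scaling and filterByExpr were used, the model held genotype alone, and p-values were adjusted by Benjamini-Hochberg over 13743 genes. The fit was tested on simulated data. Log2 fold changes are AMKO minus WT. CPM uses TMM-scaled library sizes, and log2 CPM a prior count of 2. No label ties a library to a single mouse, so p-values measure only the spread between these samples. No library was a repeat of another, since chi-square per degree of freedom within a genotype was 9.93 to 73.3.

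The members and lists were chosen with earlier results of these data known. Named genes are the members, called genes of each list or otherwise its 2 most abundant, and the 8 genes most like the members; some further genes are given for context. Lengths and overlaps come from GENCODE M21 (95.1% of tested genes matched), near-identical copies were sought with BLAST 2.17.0 (95% identity over 300 bases) and none was found for the members, and promoter windows come from RefSeq. Alternatives used DESeq2 1.42.0, limma 3.58.1 voom, other scalings and filters, added terms and left-out libraries.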

Additional observations from a re-analysis of the deposited data

Results flagged for a closer look

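Among 56 groups of 6 libraries checked for a library set apart from its group by a gap to its nearest neighbour past the 95% critical value of Dixon's test, 4 held one, and chance gives about 1 in 20. Flt1 in AMKO 4 stood at 25.6 CPM, with the next highest AMKO library at 17.6 CPM. Eng in AMKO 6 stood at 26.0 CPM, with the next at 40.4 CPM, and Plvap in AMKO 6 at 39.0 CPM, with the next at 53.9 CPM. The summed level of the 10 members in AMKO 6 was 196 CPM, with the next lowest AMKO library at 260 CPM. The values of AMKO 6 are not separate observations, since Eng and Plvap are part of the sum. Without AMKO 6 the log2 fold changes of Eng and Plvap were -0.12 and 0.075, and without AMKO 4 that of Flt1 was -0.66 (edgeR adjusted p = 0.0129).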

How the results depend on the processing

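Kdr was lower in AMKO in all 27 alternatives (log2 fold change -0.92 to -0.52, adjusted p = 3.91e-05 to 0.152). Its call was lost against WT 4 to 6 alone (-0.82), without WT 3, WT 6, AMKO 3 and AMKO 6 (-0.52), and in those 8 libraries with a sex term (-0.59). Flt1 was lower in all 27 (-0.66 to -0.38) and lost its call in 15. These were 10 of the 12 fits without 1 library (all 12 ran from -0.66 to -0.47), the fit against WT 4 to 6 (-0.41), against WT 1 to 3 (-0.66), without those 4 libraries (-0.38; -0.50 with a sex term) and with the length and GC correction (-0.45). The members called lower, 2 in the reported fit, numbered 1 to 2 in fits without 1 library, 0 against WT 4 to 6, 1 against WT 1 to 3, 0 without the 4 libraries (0 with a sex term) and 1 with the length and GC correction.

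Without the 4 libraries the fitted values of Pecam1 (0.20), Cdh5 (0.12), Tek (0.0071), Tie1 (0.16), Plvap (0.22) and Egfl7 (0.031) were above 0. With a sex term in those 8 libraries so were Pecam1 (0.25), Cdh5 (0.07), Tek (0.048), Tie1 (0.0043) and Plvap (0.23). Against WT 4 to 6 so were Pecam1 (0.073) and Cdh5 (0.0046). Plvap was above 0 by DESeq2 (0.0087), with RLE factors (0.0066), without any filter on counts (0.0023), with factors computed after leaving out the 50 genes of highest count (0.0013) and WT 1 to 3 only (0.031). In fits without 1 library, Pecam1 ran from -0.077 to 0.043, Tie1 from -0.19 to 0.015 and Plvap from -0.046 to 0.076. None of these 6 members was called in any alternative.

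All genes called, 794 in the reported fit, numbered 456 with library totals, 1267 by DESeq2, 1664 by limma voom, 167 against WT 4 to 6, 231 against WT 1 to 3, 98 without the 4 libraries, 27 with a sex term in those 8, and 411 to 1140 in fits without 1 library. Genes of the other vascular lists called lower, 8 in the reported fit, numbered 1 with library totals, 13 by DESeq2, 13 by voom, 0 against WT 4 to 6, 1 against WT 1 to 3, 0 without the 4 libraries with or without a sex term, 5 with the length and GC correction and 1 to 11 in fits without 1 library. Those called higher, 3 in the reported fit, numbered 0, 5, 5, 0, 0, 0 and 1 in the same order, and 0 to 4 in fits without 1 library. The cause of these changes was not tested, beyond the smaller number of libraries in some fits.

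Equal replicate numbers do not pair the samples by any label, and same-numbered libraries correlated at -0.20 to 0.41, over 0.1 for 4 of 6 pairs. With a replicate block Kdr stood at -0.84 (adjusted p = 0.020), Flt1 at -0.54 (adjusted p = 0.0324), 910 genes were called, and 6 vascular genes were lower and 4 higher. Members with few counts, such as Tie1 with 62 to 189 in AMKO libraries, allow only wide intervals.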
